A study of Mus musculus with 20 samples.

Results

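The genes described are mt-Co1, mt-Co3 and mt-Nd3, 3 protein-coding genes of the mouse mitochondrial genome. They were chosen by name and followed through every deposited comparison that lists them, as 3 of the 6261 genes listed in at least 1 of the 4 comparisons. The study used AML-12 cells, a line of mouse hepatocytes, either wild type or lacking Ripk3 (Ripk3-/-), the kinase that carries out necroptosis, an inflammatory form of cell death. Both genotypes were studied untreated and after 24 h with 125 µM palmitate, a saturated fatty acid, carried on bovine serum albumin. Each of the 4 groups held 5 libraries. No group is described as given albumin alone, so the fatty acid and its carrier cannot be told apart. The number of Ripk3-/- clones is not named, and nothing says that libraries came from separate cultures. The p-values therefore refer to library-to-library spread only, and that spread may be technical.

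Mitochondrial DNA is transcribed from both strands into long precursors, which are cut at the transfer RNAs that stand between the other genes. It encodes subunits of the respiratory chain, 2 ribosomal RNAs and the transfer RNAs that translate its mRNAs. mt-Co1 encodes the catalytic subunit of cytochrome c oxidase (complex IV), the enzyme that passes electrons to oxygen. That subunit carries the heme centres of the enzyme. mt-Co3 encodes another core subunit of the same enzyme, and mt-Nd3 a small membrane subunit of complex I, which oxidises NADH. Hepatocytes depend on this chain for the oxidation of fatty acids. Stretches of mitochondrial DNA have also been copied into nuclear chromosomes, where annotation lists them as pseudogenes.

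With palmitate present, Ripk3-/- cells had 3.25-fold more mt-Nd3 reads and 1.68-fold more mt-Co3 reads than wild-type cells, and slightly fewer mt-Co1 reads, at 0.911 of the wild-type level. Without palmitate, mt-Nd3 was 2.01-fold higher in Ripk3-/- cells, with 1 of the 5 libraries at the wild-type level. None of the 3 genes is listed for palmitate within either genotype. The reads of mt-Co3 and mt-Nd3 were few for mitochondrial mRNAs, and both genes have near-identical nuclear copies, so their counts are uncertain. A comparison lists a gene once it passed the authors' own test at an adjusted p of 0.05, so the listing already selected genes that differ.

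The libraries held 21.2 M to 30.1 M reads. Ripk3 itself was lower in Ripk3-/- cells in both genotype comparisons, at 4.66 ± 3.02 against 18.0 ± 5.52 normalised reads without palmitate and 6.33 ± 3.91 against 21.5 ± 3.26 with it (SD, n = 5), and the groups did not overlap. Untreated Ripk3-/- replicate 1 stood apart from its group. The chi-square of counts between libraries, divided by its degrees of freedom, was 35.0 to 48.2 in the 4 pairs that hold it and at most 15.2 in the others.

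Cell type markers were read as a check of the labels. In wild-type cells without palmitate albumin (Alb) stood at 217 ± 8.73, transthyretin (Ttr) at 13904 ± 1018 and keratin 8 (Krt8) at 49977 ± 1952 normalised reads. Of 11 hepatocyte markers, edgeR called 4 higher and 2 lower in Ripk3-/- than in wild-type cells with palmitate, and 1 higher and 2 lower without it, where 24.2% and 14.5% of all tested genes were called. Apoe, which encodes an apolipoprotein, was lower in Ripk3-/- cells, with log2 fold changes of -2.86 (SE 0.09) without and -2.60 (SE 0.05) with palmitate, while transferrin (Trf) was higher, at 0.74 (SE 0.19) and 0.80 (SE 0.08). Of 6 cholangiocyte markers, 3 were called higher and 2 lower with palmitate, and 2 higher and 1 lower without it, among them keratin 19 (Krt19), at 0.48 and 0.41. Of 6 macrophage and leukocyte markers 1 was called higher in both comparisons (Cd14, at 0.28 with and 0.35 without palmitate), and of 7 mesenchymal markers 2 were called higher with palmitate and 1 without (Des, at 1.07 and 0.84). Of 5 endothelial markers 0 are listed in any comparison. The part of these marker differences in the values of the mitochondrial genes was not tested.

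The sequences show which bases separate each gene from its copy on chromosome 1. They are GENCODE M21 transcripts (build GRCm38, the same as mm10), written 5′ to 3′, and positions count from 1 at the 5′ end of the mitochondrial transcript. mt-Co1 (ENSMUSG00000064351) lies on the plus strand of the mitochondrial genome at 5328 to 6872, a single exon of 1545 bases. Its bases 1063 to 1545, a stretch of 483, match the pseudogene Gm29216 (chromosome 1, 24615706 to 24616197, minus strand) with 1 difference, A1066T. The first 100 bases of that match are given, with the differing base in capitals.
mt-Co1 from base 1063: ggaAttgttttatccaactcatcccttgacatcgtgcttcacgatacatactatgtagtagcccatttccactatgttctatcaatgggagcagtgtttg
Gm29216 from base 10: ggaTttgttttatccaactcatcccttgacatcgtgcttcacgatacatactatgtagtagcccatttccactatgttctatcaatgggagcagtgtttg
A second pseudogene on chromosome 2, Gm13340, matches mt-Co1 over all 1545 bases at 97.6% identity, with 37 differences.

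mt-Co3 (ENSMUSG00000064358) lies at 8607 to 9390 on the plus strand, a single exon of 784 bases. The pseudogene Gm28437 (chromosome 1, 24613189 to 24613971, minus strand) holds 783 of those bases with 0 differences. The last 300 bases of mt-Co3 are given, with the final base, absent from the annotated copy, in capitals, followed by the last 100 bases of the copy.
mt-Co3 from base 485: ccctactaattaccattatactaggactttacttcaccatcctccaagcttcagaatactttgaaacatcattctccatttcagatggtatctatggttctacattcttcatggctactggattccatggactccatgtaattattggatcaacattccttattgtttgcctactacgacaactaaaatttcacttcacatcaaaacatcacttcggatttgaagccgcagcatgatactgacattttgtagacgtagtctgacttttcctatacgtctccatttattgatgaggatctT
Gm28437 from base 684: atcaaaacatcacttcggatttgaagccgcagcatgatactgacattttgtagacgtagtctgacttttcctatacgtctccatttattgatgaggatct
A read inside the first 783 bases therefore cannot tell mt-Co3 from its copy. Whether chromosome 1 also matches at the final base, or past the ends of the annotated copy, was not examined.

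mt-Nd3 (ENSMUSG00000064360) lies at 9459 to 9806 on the plus strand, a single exon of 348 bases that starts 68 bases after mt-Co3 ends. The pseudogene Gm28438 (chromosome 1, 24612775 to 24613119, minus strand) holds its first 345 bases with 1 difference, T3C. The annotated copy lacks the last 3 bases of mt-Nd3. The first 300 bases of mt-Nd3 are given with the differing base in capitals, followed by the first 100 bases of the copy.
mt-Nd3 from base 1: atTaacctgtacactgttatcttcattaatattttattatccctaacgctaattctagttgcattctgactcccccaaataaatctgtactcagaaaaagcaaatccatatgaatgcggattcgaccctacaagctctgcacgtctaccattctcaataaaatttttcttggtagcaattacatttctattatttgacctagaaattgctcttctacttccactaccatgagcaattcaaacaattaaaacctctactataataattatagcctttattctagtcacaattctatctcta
Gm28438 from base 1: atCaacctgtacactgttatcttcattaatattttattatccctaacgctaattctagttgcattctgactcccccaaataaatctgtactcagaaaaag

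The share of sequence found in no other annotated transcript differed widely between the members. Windows were compared with annotated transcripts only, not with the whole genome. Of all windows of 100 bases in mt-Co1, 69.2% occurred in no other annotated transcript. For mt-Co3 this was 0.146%, or 1 window of 685, and for mt-Nd3 it was 2.41%, or 6 of 249. With windows of 50 and 150 bases the values were 48.9% and 76.4% for mt-Co1, 0.136% and 0.158% for mt-Co3, and 2.01% and 3.02% for mt-Nd3. How the authors' counting treated reads that match both a gene and its copy, and whether it used strand, is not given in the sources used here.

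Of the mitochondrial mRNAs listed with palmitate, mt-Co1 had the most counted reads per length and mt-Nd3 the fewest. The counts of mt-Co3 and mt-Nd3 are uncertain, since near-identical copies share their sequence. On the FPKM scale, which divides reads by gene length and library size, mt-Co1 stood at 8904 ± 256 in wild-type and 8108 ± 371 in Ripk3-/- cells, both with palmitate (SD, n = 5). mt-Co3 stood at 42.2 ± 8.94 and 70.9 ± 5.23 FPKM, and mt-Nd3 at 6.05 ± 1.02 and 19.7 ± 3.65 FPKM in the same groups. Per length, mt-Co1 was 218 ± 40.3 times mt-Co3 in wild-type libraries and 115 ± 4.26 times in Ripk3-/- libraries.

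The order of FPKM with palmitate was mt-Co1, mt-Nd5, mt-Nd4, mt-Co2, mt-Atp6, mt-Co3 and mt-Nd3 in both genotypes. mt-Nd6, a complex I subunit listed only for palmitate in Ripk3-/- cells, had values there that overlapped those of mt-Nd5, at 1930 to 2150 against 1850 to 2029 FPKM. The ends of mt-Nd5 and mt-Nd6 also overlap on opposite strands of the genome. Neighbours also overlapped for mt-Atp6 and mt-Co3 in wild-type cells (43.5 to 77.6 against 33.4 to 56.8 FPKM) and for mt-Co2 and mt-Atp6 in Ripk3-/- cells (167 to 200 against 97.5 to 169 FPKM). All other neighbours were separated in every library. The 4 mRNAs at 0.146% to 2.41% unique windows, namely mt-Co3, mt-Co2, mt-Atp6 and mt-Nd3, had group means of 6.05 to 179 FPKM. The 4 with 39.3% or more, namely mt-Nd4, mt-Co1, mt-Nd5 and mt-Nd6, had 1498 to 8904 FPKM. Whether the shared sequence sets these levels was not tested.

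**Figure D1:**
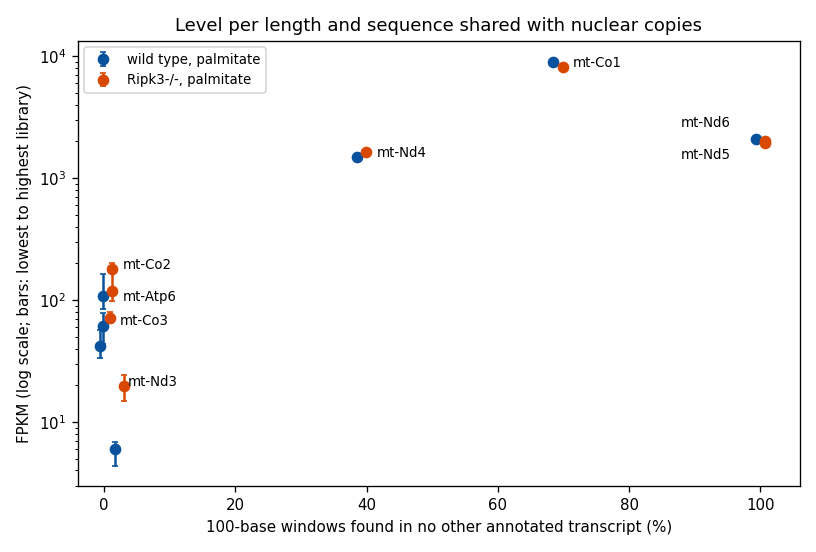
FPKM (log scale) of each listed mitochondrial mRNA in cells with palmitate, against the percentage of its 100-base windows found in no other annotated transcript; points are means of 5 libraries, bars run from the lowest to the highest library, and the genotypes are set slightly apart sideways for legibility. mt-Nd6 is drawn for Ripk3-/- cells only. The 4 mRNAs at the left lie at 6.05 to 179 FPKM and the other mRNAs at 1498 FPKM or more.

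mt-Co1 was slightly lower in Ripk3-/- cells with palmitate. Its normalised read count, the authors' read count divided by 1 factor per library, was 324752, 302138, 313373, 294721 and 289671 in Ripk3-/- replicates 1 to 5. It was 342657, 321978, 328619, 343773 and 337487 in the wild-type replicates. The groups overlapped by a single library on each side, since Ripk3-/- replicate 1 lay above wild-type replicate 2. The means were 304931 ± 14222 and 334903 ± 9381, a log2 fold change of -0.14 (SE 0.03). edgeR's quasi-likelihood test gave an adjusted p of 0.00147, and a two-sided exact permutation test over these 10 libraries gave p = 0.0159. For scale, edgeR called 24.2% of the 17611 genes the authors tested in this comparison, 12.1% lower and 12.1% higher, and 24.6% were listed.

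The reads of mt-Co1 made up 1.38% ± 0.0395 of each wild-type library and 1.25% ± 0.0573 of each Ripk3-/- library. Of all reads on the 14 mitochondrial genes listed with palmitate, mt-Co1 held 68.9% ± 0.483 in wild-type and 66.7% ± 0.690 in Ripk3-/- libraries, without overlap. Its direction was opposite to that of both copies. Gm29216 ran from 249 to 284 normalised reads in wild-type and from 664 to 898 in Ripk3-/- libraries, and Gm13340 from 43.4 to 86.7 and from 97.6 to 194. Of the reads of mt-Co1 and Gm29216 together, 99.92% in wild-type and 99.74% in Ripk3-/- libraries were counted for mt-Co1. Adding the copy could therefore hardly move the estimate. Summed, an alternative chosen after seeing the data, the pair had a log2 fold change of -0.13 (SE 0.03, edgeR adjusted p = 0.00176).

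mt-Co3, the other complex IV subunit, was higher in Ripk3-/- cells with palmitate. Its normalised read count was 1525, 1350.2, 1328, 1295 and 1267 in Ripk3-/- replicates 1 to 5. It was 745, 639, 1085, 725 and 836 in the wild-type replicates. Every Ripk3-/- library lay above every wild-type library, and wild-type replicate 3 stood nearest to them. The means were 1353 ± 101 and 806 ± 171, a log2 fold change of 0.75 (SE 0.13, edgeR adjusted p = 0.00318). The exact permutation test gave p = 0.00794, the smallest it can give with 5 against 5. Of the genes tested, 17.3% were listed in this comparison with groups that did not overlap.

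The copy of mt-Co3 differed more between the genotypes than mt-Co3 did. Gm28437 ran from 612 to 670.0 normalised reads in wild-type and from 1505 to 1883 in Ripk3-/- libraries, with a log2 fold change of 1.40 (SE 0.06, edgeR adjusted p = 4.8e-11). Of the reads of both together, 54.9% ± 4.43 were counted for mt-Co3 in wild-type and 44.2% ± 1.75 in Ripk3-/- libraries. The groups did not overlap in that share (exact permutation p = 0.00794, a test added after seeing the data). Summed, the pair had a log2 fold change of 1.07 (SE 0.09, edgeR adjusted p = 3.1e-05), above that of mt-Co3 alone.

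mt-Nd3, the complex I subunit, showed the largest difference of the 3. With palmitate its normalised read count was 160.4, 153, 127, 207 and 187 in Ripk3-/- replicates 1 to 5. It was 49.6, 55.6, 36.9, 55.8 and 58.3 in the wild-type replicates. The groups lay far apart, the lowest Ripk3-/- library being above the highest wild-type library. The means were 167 ± 30.9 and 51.2 ± 8.62, a log2 fold change of 1.70 (SE 0.14, edgeR adjusted p = 1.6e-08), and the exact permutation test gave its smallest possible p of 0.00794.

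Without palmitate the mt-Nd3 normalised read count was 54.6, 188, 141, 167 and 100.5 in Ripk3-/- replicates 1 to 5. It was 58.2, 51.7, 69.6, 75.7 and 67.6 in the wild-type replicates. Ripk3-/- replicate 1 lay inside the wild-type range and the other 4 lay above it. The means were 130.0 ± 53.2 and 64.5 ± 9.55, a log2 fold change of 1.01 (SE 0.28, edgeR adjusted p = 0.0297, exact permutation p = 0.0397). edgeR called 14.5% of the 16106 genes tested in this comparison, 7.08% of the genes higher and 7.42% lower, while 18% were listed and 10.2% were listed without overlap. The call depended on single libraries: it was lost, with adjusted p up to 0.0841, when any 1 of 8 of the 10 libraries was left out. Without Ripk3-/- replicate 1 the log2 fold change was 1.21 (edgeR adjusted p = 6.2e-05), and without Ripk3-/- replicate 5 it was 1.08 (adjusted p = 0.0373).

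**Figure D2:**
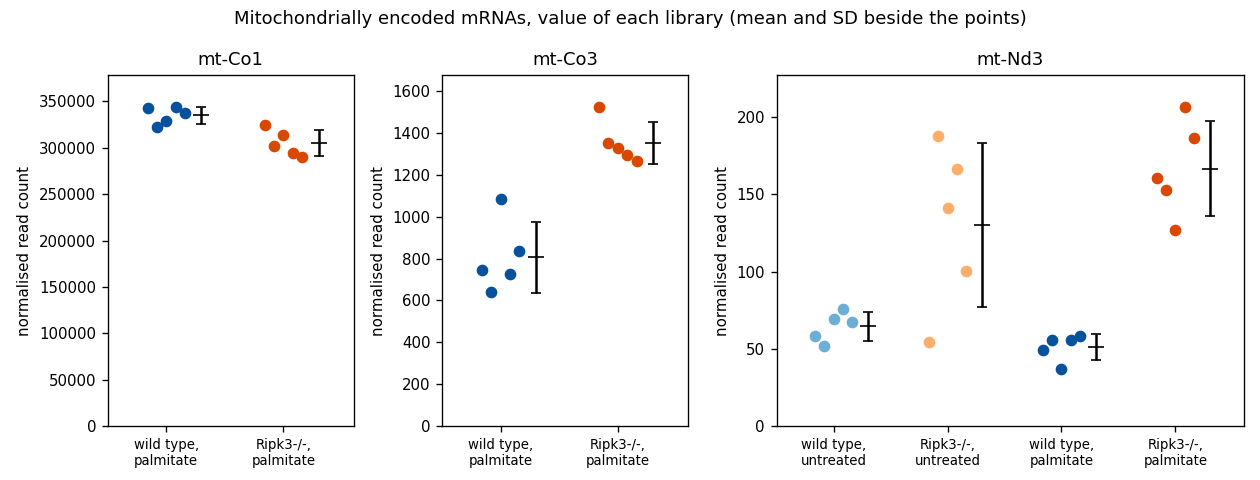
Normalised read count of mt-Co1, mt-Co3 and mt-Nd3 in each library (points) with the mean and SD of each group of 5 (black bars); mt-Co1 and mt-Co3 are listed with palmitate only, and the untreated and palmitate groups of mt-Nd3 were normalised in separate comparisons. mt-Co3 and mt-Nd3 do not overlap between genotypes with palmitate, mt-Co1 overlaps by 1 library, and 1 untreated Ripk3-/- library holds wild-type levels of mt-Nd3.

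mt-Nd3 was listed in both genotype comparisons and so had counts in all 20 libraries. Its palmitate effect could therefore be fitted in each genotype. The fit held 2993 genes, those listed as differing in comparisons that together cover all 4 groups, and not all expressed genes. Palmitate changed the mt-Nd3 count by -0.27 (SE 0.26) on the log2 scale in wild-type cells and by 0.42 (SE 0.22) in Ripk3-/- cells, with unadjusted edgeR p-values of 0.307 and 0.0634. The difference of these effects was 0.69 (SE 0.34, 95% interval -0.02 to 1.41), with an unadjusted edgeR p of 0.0519 and an adjusted p of 0.864. That interval holds both no difference and more than a doubling. edgeR called 0 of the 2993 genes for this difference at an adjusted p of 0.05, with 172, or 5.75%, at an unadjusted p under 0.05, while DESeq2 called 6 and limma 0.

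The depth behind mt-Nd3 was small. A library held 42 to 181 mt-Nd3 reads, which gives a counting error of 7.43% to 15.4% of the value. mt-Co3 rested on 678 to 1446 reads (2.63% to 3.84%) and mt-Co1 on 256695 to 425380 reads (0.153% to 0.197%). These errors cover counting only.

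mt-Nd3 moved together with its chromosome 1 copy. Gm28438 ran from 283 to 449.9 normalised reads in untreated wild-type and from 374 to 1033 in untreated Ripk3-/- libraries, and from 341 to 385 against 835 to 887 with palmitate. Its log2 fold changes were 1.06 (SE 0.26, edgeR adjusted p = 0.0270) without and 1.22 (SE 0.05, adjusted p = 5.0e-14) with palmitate. Summed with Gm28438, mt-Nd3 gave 1.06 (SE 0.26, adjusted p = 0.0276) and 1.29 (SE 0.05, adjusted p = 4.7e-14).

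mt-Nd3 was the minor partner of that pair in every library. It held 14.6% ± 1.53 of the pair's reads in untreated wild-type and 13.9% ± 3.30 in untreated Ripk3-/- cells, where the exact permutation test gave p = 0.706. With palmitate it held 12.1% ± 1.47 in wild-type and 16.1% ± 2.39 in Ripk3-/- cells (exact permutation p = 0.0159). The share thus differed in the opposite direction to that of mt-Co3 and its copy.

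**Figure D3:**
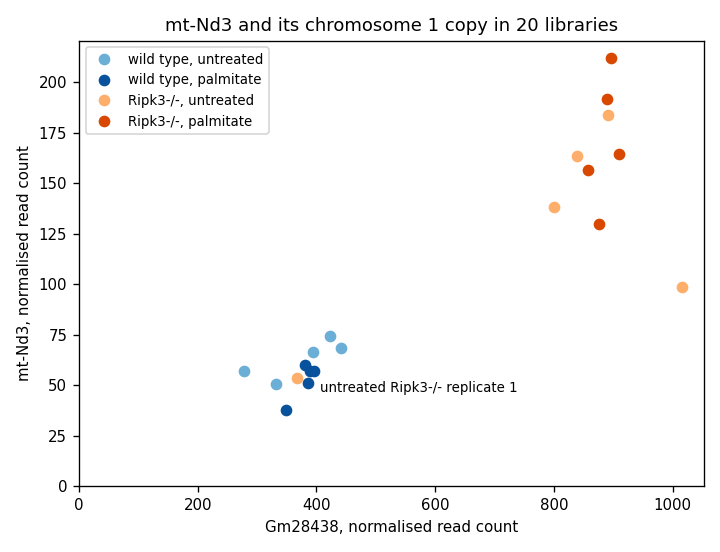
Normalised read count of mt-Nd3 against that of its copy Gm28438 in the 20 libraries, scaled with 1 joint set of size factors, so that values differ slightly from those of the single comparisons. The wild-type libraries lie at the lower left with untreated Ripk3-/- replicate 1 among them, and the other 9 Ripk3-/- libraries lie at the upper right.

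The other mitochondrial genes placed these members in 2 sets. Of the 37 mitochondrially encoded genes, 14 were listed for genotype with palmitate, 12 higher and 2 lower in Ripk3-/- cells. edgeR called all 14, or 37.8% of the 37, where it called 24.2% of all genes tested. Of the 4333 listed genes it called 4259, so a call added little to the listing. The lower genes were mt-Co1 and mt-Nd5, which encodes a large complex I subunit (log2 fold change -0.12, SE 0.03, adjusted p = 0.00799). mt-Co2, which carries the copper centre that accepts electrons from cytochrome c, was higher by 0.74 (SE 0.17, adjusted p = 0.0134), and mt-Atp6, the proton channel subunit of ATP synthase, by 0.97 (SE 0.20, adjusted p = 0.00695). mt-Nd4 was higher by 0.12 (SE 0.03, adjusted p = 0.00465) and the 12S ribosomal RNA mt-Rnr1 by 0.18 (SE 0.04, adjusted p = 0.000964). The median log2 fold change of the 14 was 0.77, against 0.06 over all 4333 genes listed in the comparison.

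edgeR called 6 of the 22 mitochondrial transfer RNAs (27.3%), near the 24.2% called among all genes tested. These 6 were among the 14, and all 6 were higher in Ripk3-/- cells. Their log2 fold changes ran from 0.57 (SE 0.13) for mt-Ts2 through 0.78 for mt-Th, 0.97 for mt-Tc, 1.33 for mt-Tn and 1.39 for mt-Tl2 to 2.41 (SE 0.50) for mt-Ti, which had no read in some wild-type libraries. None of these 6 genes lies within the stretch whose copies are annotated on chromosome 1. mt-Tn and mt-Tc lie between mt-Nd2 and mt-Co1, whose copies Gm13339 and Gm13340 stand side by side on chromosome 2. Both of those copies were higher too, at 2.61 (SE 0.34, adjusted p = 4.9e-06) and 1.15 (SE 0.19, adjusted p = 0.000433). All 7 copies on chromosome 1 were listed and higher, with a median log2 fold change of 1.13 and no overlap between groups. Of all genes tested, 17.3% were listed without overlap. These copies are 294 to 876 bases long. Among all listed genes up to 600 bases 87.2% were higher, and among those of 601 to 1000 bases 82.2%. edgeR called 6 of the 7 copies (85.7%), against 24.2% of all genes tested. The exception was Gm10222, the copy of mt-Nd4l, with an adjusted p of 0.169.

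**Figure D4:**
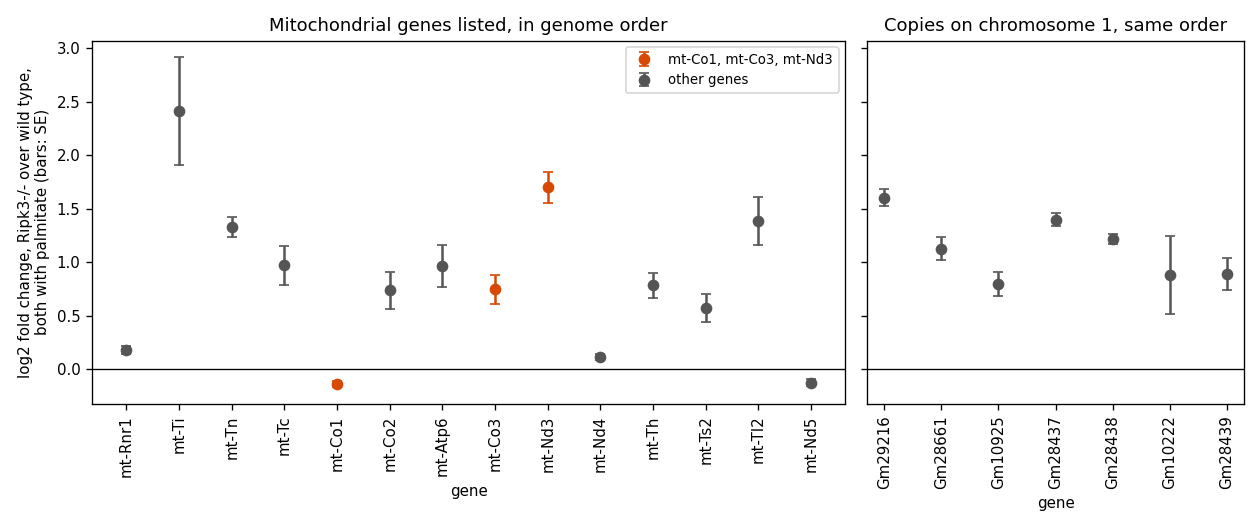
Log2 fold change of Ripk3-/- over wild-type cells, both with palmitate, for the 14 listed mitochondrial genes in genome order (left) and for the 7 copies on chromosome 1 in the same order (right); points are edgeR estimates and bars are SE. mt-Co1 and mt-Nd5 lie below 0, mt-Nd4 and mt-Rnr1 just above it, and all copies lie above 0.

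Without palmitate, 8 mitochondrial genes were listed for genotype, 7 higher and mt-Tl1 lower in Ripk3-/- cells, and mt-Nd3 was the only mRNA. edgeR called 5, all higher: mt-Nd3, mt-Rnr1 (0.28, SE 0.07), mt-Ti (2.02, SE 0.59), mt-Ts2 (0.59, SE 0.18) and mt-Tl2 (1.16, SE 0.29). These 5 were 13.5% of the 37 mitochondrially encoded genes, near the 14.5% called among all genes tested. mt-Tn (1.18, adjusted p = 0.0726), mt-Tc (0.87, adjusted p = 0.109) and mt-Tl1 (-0.49, adjusted p = 0.0577) did not pass. Of the 7 chromosome 1 copies 4 were listed, all higher, and edgeR called 3 (42.9%, against 14.5% of all genes tested). Without Ripk3-/- replicate 1, an alternative chosen after seeing the data, edgeR called all 8 mitochondrial genes, 7 higher and 1 lower, and 4 copies. It then called 2392 of the 2894 listed genes.

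For palmitate within a genotype, mt-Rnr1 was listed again and none of the 3 members was. In wild-type cells edgeR called 3 higher, the ribosomal RNAs mt-Rnr1 (0.32, SE 0.04) and mt-Rnr2 (0.25, SE 0.04) and the transfer RNA mt-Tp (0.19, SE 0.04), where 15.8% of 13764 tested genes were listed and 14.6% called, 8.4% higher and 6.25% lower. In Ripk3-/- cells edgeR called mt-Tp higher (0.18, SE 0.05) and mt-Nd6 lower (-0.15, SE 0.04), where 10.2% of 12871 tested genes were listed and 7.56% called, 4.41% higher and 3.15% lower. mt-Rnr1 was listed there too, at 0.22 (SE 0.07, adjusted p = 0.0670). The palmitate and genotype comparisons share libraries, so their values are set side by side only.

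Gene length moved with the same comparison. Among genes no longer than 600 bases, the class of mt-Nd3, 273 were listed for genotype with palmitate and 87.2% of those were higher in Ripk3-/- cells, with a median log2 fold change of 0.82. In the class of mt-Co3, 601 to 1000 bases, 82.2% of 230 were higher, with a median of 0.39. In the class of mt-Co1, 1001 to 2500 bases, 57.5% of 797 were higher, with a median of 0.13, and over 2500 bases 42.4% of 3033. Without palmitate, 176 genes of this shortest class were listed and 82.4% were higher, with a median of 0.58. The part of gene length, of shared sequence and of genotype in the values of mt-Co3 and mt-Nd3 was not tested.

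Untreated Ripk3-/- replicate 1 departed from its group among short genes. Listed genes no longer than 600 bases stood there at a median of 0.663 of the other 4 libraries' median, and those of 601 to 1000 bases at 0.810. Those of 1001 to 2500 bases stood at 0.979 and longer ones at 1.02. mt-Nd3 in this library was 0.355 of the median of the other 4. It was also the lowest library of its group for the copies Gm29216 (0.357), Gm28437 (0.491) and Gm28438 (0.425) and for mt-Rnr1 (0.816), but not for mt-Tl1 (1.53).

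The nuclear partners of these subunits were followed in lists of genes, and each count is read against the share of all tested genes that edgeR called, 24.2% for genotype with palmitate and 14.5% without. Of 17 nuclear subunits of complex IV, 11 were higher and 1 lower in Ripk3-/- than in wild-type cells with palmitate (70.6% called), and 6 were higher and 0 lower without it (35.3%). The median log2 fold change of the 12 listed with palmitate was 0.33. Cox7a1 (0.82, SE 0.09), Cox7c (0.78, SE 0.03), Cox7a2 (0.44, SE 0.05) and Cox6b1 (0.41, SE 0.03), small subunits of the enzyme, differed the most. Of 23 complex IV assembly factors, 7 were higher and 0 lower with palmitate (30.4% called, near the share of all genes), and 1 was higher without it. That gene, Pet100, was higher by 0.89 (SE 0.08) with and by 0.81 (SE 0.24) without palmitate.

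Of 37 nuclear subunits of complex I, the enzyme of mt-Nd3, 25 were higher and 1 lower in Ripk3-/- than in wild-type cells with palmitate (70.3% called), and 13 were higher and 0 lower without it (35.1%). The median log2 fold change of the 26 listed with palmitate was 0.27. Ndufa3 was higher by 1.02 (SE 0.09), Ndufc1 by 0.73 (SE 0.06), Ndufa1 by 0.71 (SE 0.07) and Ndufa5 by 0.64 (SE 0.05), all accessory subunits. The genes of these lists were short: with palmitate the median length was 1373 bases for the listed complex I and 1139 bases for the listed complex IV genes, and 7 and 5 of them were no longer than 1000 bases. The part of length in these counts was not tested. For palmitate in wild-type cells edgeR called 2 lower and 0 higher in each of both lists. That was 5.41% of the complex I and 11.8% of the complex IV list, below the 14.6% of all genes tested. For palmitate in Ripk3-/- cells none is listed.

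Genes whose products make, process or stabilise mitochondrial RNA were called at shares near or below that of all genes in both genotype comparisons. Of 23 genes of mitochondrial transcription and DNA maintenance, 4 were higher and 1 lower in Ripk3-/- cells with palmitate (21.7% called, against 24.2%), and 2 were higher without it (8.70%, against 14.5%). The elongation factor gene Tefm was higher by 0.28 (SE 0.07), and Tfb2m, which opens mitochondrial promoters, was lower at -0.14 (SE 0.04). Of the 22 names in the list of RNA processing and turnover, where 1 gene stands under both of its names, 3 were higher and 2 lower with palmitate (22.7%), and 2 higher and 1 lower without it (13.6%). Lrpprc and Slirp encode the partners of a complex that stabilises mitochondrial mRNAs, and they differed in opposite directions with palmitate. Lrpprc was higher in Ripk3-/- cells, at 2936 against 2452 normalised reads (0.26, SE 0.03, adjusted p = 3.7e-07), and Slirp lower, at 26.0 against 71.6 (-1.44, SE 0.20, adjusted p = 1.7e-05).

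Translation and biogenesis genes gave small differences. Of 15 genes of mitochondrial translation and insertion, 1 was higher and 2 were lower in both genotype comparisons (20% called). Oxa1l, which inserts mitochondrially made proteins into the inner membrane, was lower in Ripk3-/- cells both without (-0.21, SE 0.05) and with palmitate (-0.19, SE 0.04). Of 20 genes of biogenesis and mitophagy, 5 were higher and 2 lower with palmitate (35% called), and 3 higher and 2 lower without it (25%). The mitophagy receptor genes Bnip3l and Bnip3 were lower in Ripk3-/- than in wild-type cells, at -0.26 (SE 0.03) and -0.24 (SE 0.05) with palmitate and at -0.27 (SE 0.03) and -0.23 (SE 0.07) without it. Ppargc1a, the coactivator that drives mitochondrial biogenesis, was higher by 0.24 (SE 0.06) with palmitate. In bulk RNA, fewer mitochondria per cell and fewer transcripts per mitochondrion cannot be told apart.

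The genes whose profiles were most like each member were found by Pearson's r of log2(normalised count + 1), as a description without a test, since the libraries of a genotype share their level. For mt-Nd3, over 20 libraries and 2992 other genes, these were 5 processed pseudogenes of 136 to 599 bases: Rps13-ps2 (0.968), Rpl39-ps (0.956), Gm3788 (0.952), Gm11478 (0.946) and Gm14539 (0.939). The chromosome 1 copies Gm29216, Gm28437 and Gm28438 ranked 8, 12 and 17. Over the 10 libraries with palmitate alone, a set added after seeing the data, the 5 nearest to mt-Nd3 were instead 3 protein-coding genes of 2928 to 6265 bases, Dpysl2 (0.983), Ubxn8 (0.977) and Dpysl3 (0.977), with the pseudogenes Gm3788 (0.979) and Gm6863 (0.979). For mt-Co1, over the 10 libraries with palmitate and 4332 genes, the nearest were Phf21a (0.965), Nav2 (0.963), Jmjd8 (0.962), Gm47113 (0.960) and Rab32 (0.960). For mt-Co3 they were Eef2 (0.969), Gm5913 (0.963), Chchd3 (0.961), Slc44a1 (0.959) and Ehf (0.956).

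Within groups the members did not follow each other closely. As a description, for deviations from the group means of the 10 palmitate libraries, r was 0.23 for mt-Co1 with mt-Co3, -0.60 for mt-Co3 with mt-Nd3 and 0.61 for mt-Co1 with mt-Nd5. Over all 20 libraries mt-Nd3 and Gm28438 had an r of 0.73 in such deviations, and 0.54 over the 15 libraries outside the untreated Ripk3-/- group. This was not particular to Gm28438, since mt-Nd3 and mt-Rnr1 had 0.73 and 0.60. With Gm29216 the values were 0.71 and -0.16, and with Gm28437 0.68 and -0.33.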

How the data were processed

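RNA-seq of 20 AML-12 libraries was deposited as 4 gene tables, 1 for each pair of groups. As read per the file headers, a table holds the authors' read counts, their normalised counts (a signal scaled between libraries), FPKM, log2 fold change, p-value and adjusted p-value, and each lists only genes with an adjusted p under 0.05. Per the submitters' processing notes, the tools were FastQC 0.11.9, HISAT2, featureCounts 1.5.0-p3 and DESeq2, on mm10; the sources used here do not give the annotation, strand or multi-mapping settings. Columns of other samples numbered 0.

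The deposited counts were tested here with edgeR 4.0.16 (R 4.3.3), as a robust quasi-likelihood fit over every listed gene with the authors' size factors. p-values were adjusted by Benjamini-Hochberg over all genes tested upstream, a number worked out from the deposited p-values. Because dispersions came from listed genes only, the tests describe listed genes. The joint fit used 20 libraries and size factors fitted to the deposited ones. Exact permutation tests were two-sided, on log2(normalised count + 1) or on shares. Alternatives used DESeq2 1.42.0, limma 3.58.1 on log2(FPKM + 1 or 0.1), other scalings, a filter of 10 reads in 5 libraries, a replicate block and left-out libraries. Copies were found with BLAST 2.17.0 among GENCODE M21 transcripts, at 90% identity or more over at least 60 bases. Fits were tested on simulated data.

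The genes named are the 3 members, every listed mitochondrially encoded gene, up to 4 called genes per list with the largest change, the 5 genes most like each member and Ripk3. The members and lists were chosen with earlier results of these data known. Groups and replicate numbers came from the sample titles. In 40 pairs of libraries within groups 0 were identical, and the chi-square per degree of freedom was at least 2.76, so each library counted once.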

Additional observations from a re-analysis of the deposited data

Results flagged for a closer look

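Among 82 groups of 5 libraries, covering every listed mitochondrial gene and the listed copies on chromosomes 1 and 2, 7 held a library far from the others of its group. Chance flags about 1 in 20 such groups. Values are normalised read counts.

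mt-Co2, the complex IV subunit gene beside mt-Co1, was highest in wild-type replicate 5 with palmitate, at 2715 against 1662 in the next library. mt-Atp6, the gene before mt-Co3, was highest in Ripk3-/- replicate 3 with palmitate, at 2802 against 1955. Gm29216, the partial copy of mt-Co1, was highest in wild-type replicate 4 with palmitate, at 284 against 258. Gm28661, the copy of mt-Co2, and Gm10222, the copy of mt-Nd4l, were both highest in Ripk3-/- replicate 2 with palmitate, at 3149 against 2410.1 and at 781 against 338. mt-Ts2 was highest in Ripk3-/- replicate 1 with palmitate, at 68.7 against 59.7. mt-Tn was lowest in untreated wild-type replicate 2, at 130 against 193. None of the 7 is mt-Co1, mt-Co3 or mt-Nd3.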

How the results depend on the processing

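No result reversed under any alternative run. With palmitate, the genotype calls of mt-Co1, mt-Co3 and mt-Nd3 held in every alternative run, with log2 fold changes over left-out libraries of -0.16 to -0.12, 0.67 to 0.88 and 1.60 to 1.79. Summing with the chromosome 1 copy moved mt-Co3 to 1.07 and mt-Nd3 to 1.29. It could hardly move mt-Co1, which held almost all reads of its pair. Without palmitate, mt-Nd3 lost its call under limma on log2(FPKM + 1) (0.83) and on log2(FPKM + 0.1) (0.89), and over left-out libraries it ranged from 0.84 to 1.21 (adjusted p 6.2e-05 to 0.0841). The cause was not tested.

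The count of genes called for the difference of palmitate effects was 0 in edgeR, 6 in DESeq2, 4 with a replicate block and 2 without untreated Ripk3-/- replicate 1. Over left-out libraries it ranged from 0 to 2, and the mt-Nd3 difference from 0.49 to 0.86, never past the adjusted threshold. Calls over left-out libraries ranged from 1551 to 1814 and from 675 to 1058 for palmitate in wild-type and Ripk3-/- cells, and from 1620 to 2392 and from 3763 to 3947 for genotype without and with palmitate.

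Whether replicate numbers pair the samples was not settled. Correlations of same-numbered libraries ran from 0.02 to 0.26 for palmitate in wild-type cells and from -0.10 to 0.29 in Ripk3-/- cells. For genotype they ran from -0.05 to 0.10 without palmitate and from -0.08 to 0.04 with it. The main fits used no replicate block. With a replicate block mt-Nd3 had a log2 fold change of 0.94 without palmitate (adjusted p = 0.0354) and its difference of palmitate effects was 0.73.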
